A study of Homo sapiens with 6 samples.

Results

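The plasminogen activation system was followed through 7 genes: PLAU, PLAT, PLAUR, ANXA2, S100A10, SERPINE2 and SERPINB2. They were chosen by name as plasminogen activators, cell-surface receptors and serpin inhibitors, and all 7 were found among the 64253 Ensembl identifiers of the count table. Of these, 6 had enough reads to be tested and SERPINB2 did not. The libraries were 3 from NCI-H1299 cells overexpressing MTSS1, which encodes an actin and membrane scaffold of the I-BAR group, from an mCherry-tagged plasmid, and 3 from wild type NCI-H1299 cells. NCI-H1299 is an established human lung cancer line. The MTSS1 cells had also gone through hygromycin selection and flow sorting, and the labels' protocols mention HEK293T cells for the transfection without saying how they were used. The labels describe no library with an empty plasmid, so an effect of MTSS1 cannot be told apart from one of the tag, the selection or the sorting. Poly(A) RNA was sequenced as single reads.

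Plasmin is a serine protease that dissolves fibrin and also cuts matrix proteins and latent growth factors. It is made from plasminogen, an inactive zymogen secreted mainly by the liver, by either of a pair of activators, the urokinase type (uPA, from PLAU) and the tissue type (tPA, from PLAT). Tumour cells gather uPA on the receptor uPAR (from PLAUR) and plasminogen on surface proteins such as the complex of annexin A2 and S100A10. Serpins trap the activators, and the trapped complexes are taken up by receptors of the LDL receptor family. In lung and other carcinomas uPA and uPAR are best known for their part in invasion.

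The libraries held between 13883380 and 25741708 counts in the overexpressing group and between 19018751 and 29479453 in the wild type group. MTSS1 itself lay between 544 and 568 CPM in the overexpressing libraries, against 18.0 to 24.3 CPM in the wild type libraries, where CPM is the usual depth-scaled read count, on library sizes adjusted by edgeR's TMM method. The mesenchymal marker VIM averaged 4704 CPM in overexpressing and 4400 CPM in wild type cells, and the epithelial keratin gene KRT18 299 CPM in overexpressing and 522 CPM in wild type cells. KRT8, another epithelial keratin gene, averaged 49.6 CPM in overexpressing and 165 CPM in wild type cells and was called lower (adjusted p = 0.011 by edgeR). The epithelial gene EPCAM and the lung lineage gene NKX2-1, both with few reads, lay higher with separate groups and did not pass. Their log2 fold changes were 0.66 for EPCAM and 1.15 for NKX2-1 (adjusted p = 0.44 and 0.12 by edgeR). Of 11 cell line markers looked up, 7 were tested, with 4 above 0, 3 below 0 and only KRT8 called. With libraries of neighbouring title numbers as a replicate block in edgeR, 2 of these markers were higher and 2 lower. In that fit 22.7% of all genes were called. The lung surfactant gene SFTPB was listed at 0 in all libraries, and CDH1, which encodes E-cadherin, had 7 counts in overexpressing and 4 in wild type cells. Of the 13 marker genes of leukocytes, endothelium and fibroblasts looked up, 8 could be tested, and 0 passed edgeR's test (1 at an unadjusted p under 0.05, and 0 by DESeq2). Replicate 1 of both groups stood apart from the other libraries on the leading principal component, which held 34.8% of the variance. Whether replicates were grown as separate cultures is not labelled, and every p-value reflects the spread of these libraries alone, which may be technical.

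The promoters of PLAU, PLAUR and ANXA2 are shown because PLAU and PLAUR had the lowest fold changes of the 6 tested members, while ANXA2 had the highest mean CPM. Sequences are RefSeq's on GRCh38.p14, 5′ to 3′ on the gene's strand. Those of PLAU and ANXA2 are cut where an annotated exon begins. The whole PLAUR window lies within annotated exons, and only the surroundings of a single site are given. Capitals mark the AP-1 motif TGAGTCA and the Sp1 motif GGGCGG. The TATA motif searched was TATAAA, and all were searched on either strand. The PLAU window is that of the downstream of its 2 starts (chr10:73910882-73911103, plus strand, from position -250 to position -29 before the start), the PLAUR site lies at chr19:43670338-43670366 (minus strand) and the ANXA2 window at chr15:60398044-60398236 (minus strand, from -250 to -58).
PLAU: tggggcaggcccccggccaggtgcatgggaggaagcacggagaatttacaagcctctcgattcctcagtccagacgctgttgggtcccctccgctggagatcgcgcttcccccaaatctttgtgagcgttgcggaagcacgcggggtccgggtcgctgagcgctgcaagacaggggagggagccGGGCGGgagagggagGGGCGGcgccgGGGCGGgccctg
PLAUR: tcacaactccaTGAGTCAgggccgagcca
ANXA2: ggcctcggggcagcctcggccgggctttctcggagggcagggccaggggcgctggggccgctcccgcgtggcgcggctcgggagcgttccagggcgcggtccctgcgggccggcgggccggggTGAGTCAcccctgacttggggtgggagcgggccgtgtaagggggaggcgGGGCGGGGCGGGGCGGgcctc

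Promoters of 6 of the 7 members were found in the RefSeq table, PLAT being the exception. Over the 250 bases before the start, PLAU had 3 Sp1 motifs (from -66, -51 and -40) and no AP-1, TATA or NF-κB consensus motif, and its upstream start had none of these motifs. PLAUR had 1 AP-1 motif (-186 to -180), and ANXA2 had 1 AP-1 motif (-127 to -121), 3 overlapping Sp1 motifs and a TATA motif from -31, which lies in the part not shown. Sp1 motifs also stood before S100A10 and before both starts of SERPINE2, and SERPINB2 had a TATA motif (from -30). Of 35116 RefSeq promoters, 42.6% held 1 or more Sp1 motifs and 10.7% the TATA motif in the same 250 bases. The NF-κB consensus stood in 5.21% and the AP-1 motif in 4.20%, each searched on both strands. The best known AP-1 and Ets enhancer of PLAU lies farther upstream, outside this window. A match here is only a run of letters, and binding was not measured.

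The urokinase gene was the one member that passed the test. PLAU (ENSG00000122861, chr10:73909177-73917497 on GRCh38, plus strand) stood at 405, 485 and 376 CPM in overexpressing cells, against 679.7, 515 and 662 CPM in wild type cells. All 3 overexpressing libraries lay below all 3 wild type libraries, though the highest of the first, replicate 2, came close to the lowest of the second, also replicate 2. PLAU fell to 0.682 of its wild type level (422 ± 56.2 CPM in overexpressing and 619 ± 90.2 CPM in wild type cells, SD, n = 3 each; log2 fold change -0.55, 95% interval -0.84 to -0.26, SE 0.13, adjusted p = 0.047 by edgeR). In these bulk libraries fewer cells that express a gene and less RNA per cell cannot be told apart. Among all 16091 genes tested with edgeR, 4.28% passed the threshold of 0.05 and 2.45% passed it as lower. Of the 6 tested members 1 was called, lower, and 0 higher, where 1.82% of all genes were called higher. At an unadjusted p under 0.05, which 19.8% of all genes met (9.15% higher and 10.7% lower), 0 members were higher and 2 lower.

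The uPAR gene lay in the same direction and did not pass. PLAUR (ENSG00000011422, chr19:43646095-43670547, minus strand), whose product holds uPA at the cell surface by a lipid anchor, stood at 215, 162 and 189 CPM in overexpressing cells, against 259, 244 and 234 CPM in wild type cells. The groups did not overlap here either. Its log2 fold change was -0.38 (95% interval -0.62 to -0.14, SE 0.11, adjusted p = 0.081 by edgeR). PLAU and PLAUR were thus 2 of 6 tested members whose overexpressing libraries all lay lower, a pattern found in 13.5% of all tested genes, and no member's groups were separate the other way, as in 12.1% of genes (25.5% either way).

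**Figure D1:**
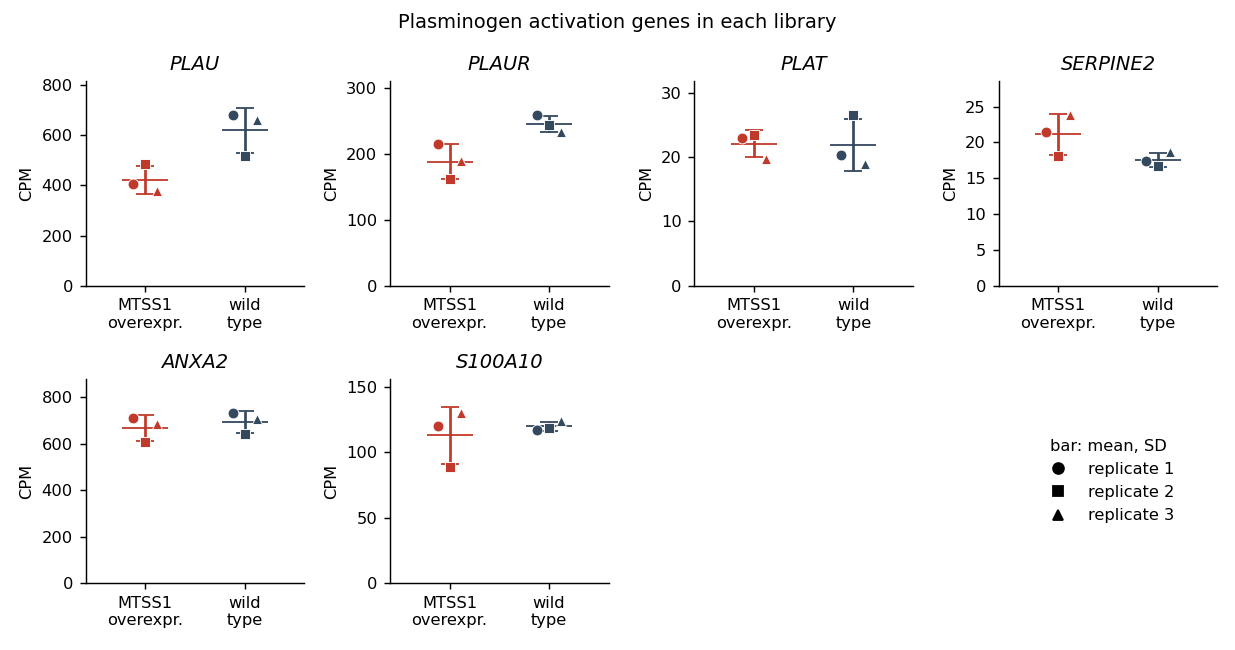
CPM (vertical axes, each from 0) of the 6 tested members in every library, MTSS1-overexpressing at left and wild type at right; symbols are replicates, horizontal bars the mean and error bars the SD (n = 3). The groups are separate for PLAU and PLAUR and overlap for the other genes.

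The replicate that stood closest to wild type was not the same for the activator and its receptor. Taking the libraries with neighbouring title numbers together, PLAU was at 0.596, 0.941 and 0.569 of its wild type partner and PLAUR at 0.829, 0.663 and 0.809. Replicate 2 thus held the smallest difference for PLAU and the largest for PLAUR. With these pairs as a block in edgeR, where 22.7% of all genes passed (10.7% higher and 12% lower), both genes were called (PLAU adjusted p = 0.0042, PLAUR adjusted p = 0.0013), so 2 of 6 members were lower. DESeq2, under which 7.85% of genes were called (3.52% higher and 4.34% lower), also called both and 0 members higher (adjusted p = 5.4e-04 for PLAU and 0.016 for PLAUR).

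The PLAU call in the fit without a block rested on every library but 1. It was lost without any single library other than wild type replicate 2, with adjusted p between 0.055 and 0.155 in those 5 fits and log2 fold changes between -0.66 and -0.47. The share of all genes called in the 6 fits was 1.96%, 1.51% and 1.18% without overexpressing replicates 1, 2 and 3, and 2.06%, 2.1% and 0.874% without wild type replicates 1, 2 and 3. Without both replicate 1 libraries, which stood apart on the first component, the log2 fold change was -0.45 (adjusted p = 0.26 by edgeR), and 0.807% of all genes were called. The 50 tested genes nearest to PLAU on chromosome 10 had a median log2 fold change of 0.01, and those nearest to PLAUR on chromosome 19 a median of -0.01. Scaled to the mean of its neighbours in each library, as an offset, PLAU had a log2 fold change of -0.60 and edgeR did not call it (adjusted p = 0.088), nor any other member, where 2.28% of all genes were called (0.915% higher and 1.36% lower). With offset and block together 14.6% of genes were called, with no filter on low counts 5.19%, and with DESeq2's size factors in edgeR 4.25%.

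**Figure D2:**
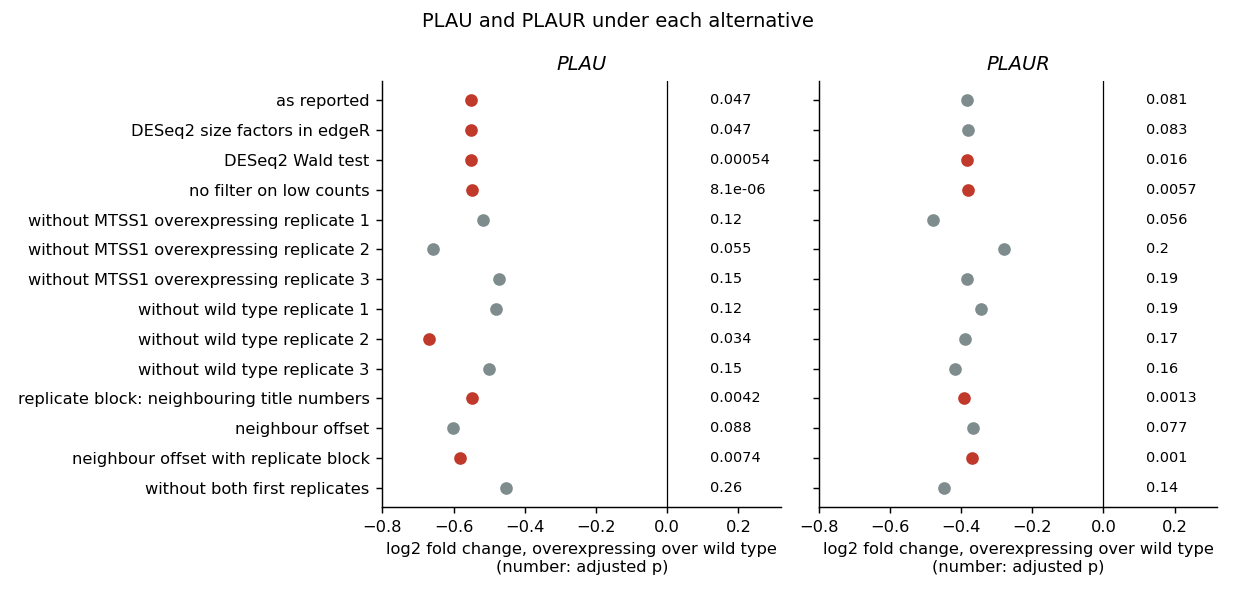
Log2 fold change of overexpressing over wild type (horizontal axis) of PLAU and PLAUR under each way of processing (rows), with the adjusted p printed at right and red points for adjusted p under 0.05. All points lie below 0, from -0.67 to -0.45 for PLAU and from -0.48 to -0.28 for PLAUR. The red points change with the setting.

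For the other activator no difference was detected. PLAT (ENSG00000104368, chr8:42175233-42207724, minus strand) stood at 23.1, 23.5 and 19.7 CPM in overexpressing cells and at 20.3, 26.6 and 18.9 CPM in wild type cells. The groups overlapped throughout, with means of 22.1 ± 2.09 CPM in overexpressing and 21.9 ± 4.07 CPM in wild type cells (SD, n = 3 each). The log2 fold change was 0.01, with a 95% interval of -0.33 to 0.35 (adjusted p = 0.985 by edgeR), so a change within that interval is not excluded.

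For both parts of the annexin complex the groups overlapped and no difference was detected. ANXA2 (ENSG00000182718, chr15:60347134-60402883, minus strand), the membrane-binding part, stood at 711, 606 and 687 CPM in overexpressing cells and at 733, 642 and 705 CPM in wild type cells. Its log2 fold change was -0.05 (95% interval -0.26 to 0.15, adjusted p = 0.81 by edgeR), beside a median of -0.14 for its 50 neighbours on chromosome 15. S100A10 (ENSG00000197747, chr1:151982915-151994390, minus strand), the part known to bind plasminogen, stood at 119.8, 88.7 and 130.2 CPM in overexpressing cells and at 117, 118 and 124 CPM in wild type cells. Overexpressing replicate 2 lay below the wild type range and replicate 3 above it, and the log2 fold change was -0.09 (95% interval -0.38 to 0.20, adjusted p = 0.79 by edgeR). Per kb of the principal transcript, the S100A10 level was 0.235 ± 0.030 of the ANXA2 level in overexpressing cells and 0.242 ± 0.018 in wild type cells (SD, n = 3 each; exact permutation test, two-sided, p = 0.7).

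Reads of ANXA2 can be shared with its processed pseudogenes. Of the 3479 windows of 50 bases in its longest transcript, 452 stand unchanged in ANXA2P2 and 71 in ANXA2P1. The pseudogenes took few reads: ANXA2P2 averaged 2.66 CPM in overexpressing and 3.28 CPM in wild type cells, and ANXA2P1 1.87 CPM in overexpressing and 2.24 CPM in wild type cells. With all 3 pseudogenes added to ANXA2 the log2 fold change was -0.06 (adjusted p = 0.81 by edgeR). In PLAU, 19.9% of such windows lie in C10orf55, annotated on the opposite strand across most of the gene, which had 56 counts in the overexpressing and 106 in the wild type libraries. In SERPINB2, 23.7% of its windows lie in SERPINB10, annotated on the same strand across part of the gene, which had 0 counts in either group. Whether SERPINB2 lost reads to this overlap was not tested. PLAUR and S100A10 shared 0 windows with other annotated transcripts. The sources used here do not give the strand setting of the counting, and reads of PLAU and C10orf55 cannot be told apart by strand.

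Among the serpins, SERPINE2 lay higher without passing. SERPINE2 (ENSG00000135919, chr2:223975112-224039319, minus strand) encodes protease nexin-1, which inhibits uPA, tPA and thrombin. It stood at 21.4, 18.2 and 23.8 CPM in overexpressing cells, against 17.4, 16.7 and 18.7 CPM in wild type cells, and only overexpressing replicate 2 fell within the wild type range. The log2 fold change was 0.26 (95% interval -0.03 to 0.56, adjusted p = 0.31 by edgeR; 0.081 with the replicate block). SERPINB2 (ENSG00000197632, chr18:63871692-63903890, plus strand), which encodes the inhibitor PAI-2, had 4, 0 and 3 counts in the overexpressing libraries and 4, 3 and 3 in the wild type libraries. At this depth no difference was detectable, and SERPINB2 is known as a gene that inflammatory signals induce.

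Levels of different genes were compared as CPM per kb of the principal transcript. The order in overexpressing cells was ANXA2 (398), PLAU (182), PLAUR (122), S100A10 (93.9), SERPINE2 (9.63), PLAT (8.16) and SERPINB2 (0.064). In wild type cells ANXA2 (414), PLAU (267), PLAUR (159) and S100A10 (99.6) came in the same order, followed by PLAT (8.10), SERPINE2 (8.02) and SERPINB2 (0.066). PLAT and SERPINE2 overlapped in their spread by this length. By the longest transcript PLAT stood above SERPINE2 in both groups. PLAT was at 6.38 in overexpressing and 6.33 in wild type cells, and SERPINE2 at 3.53 in overexpressing and 2.94 in wild type cells. By the longest transcript PLAU stood at 159 in overexpressing and 233 in wild type cells and ANXA2 at 189 in overexpressing and 197 in wild type cells, so PLAU stood above ANXA2 in wild type cells by that length, while in overexpressing cells ANXA2 stood above PLAU by both lengths. By principal transcripts the PLAU level was 22.3 ± 1.77 times the PLAT level in overexpressing cells and 34.1 ± 10.0 times in wild type cells, and the groups overlapped (exact permutation test, two-sided, p = 0.2).

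PLAU was also set against an inhibitor, its receptor and a plasminogen receptor within each library. The PLAU level per kb of the principal transcript was 17.9, 25.2 and 14.9 times that of SERPINE2 in overexpressing cells, against 37.0, 29.1 and 33.6 times in wild type cells. By the longest transcripts these ratios would be higher in both groups, since SERPINE2 measures 2195 bases by its principal and 5989 by its longest transcript. These groups did not overlap, and p = 0.1 is the smallest that an exact permutation test of 3 against 3 can give. Against PLAUR the ratio averaged 1.53 ± 0.408 in overexpressing and 1.68 ± 0.248 in wild type cells (SD, n = 3 each; exact permutation test, two-sided, p = 0.6). Against ANXA2 it was 0.412, 0.578 and 0.396 in overexpressing cells and 0.670, 0.580 and 0.678 in wild type cells, without overlap, though replicate 2 of both groups nearly met (exact permutation test, two-sided, p = 0.1). None of these tests of ratios was adjusted, and none could reach 0.05. PLAU is the numerator of each ratio here, so these comparisons are not independent of the PLAU difference itself.

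Among 10267 protein-coding genes averaging 5 CPM or more, the 3 whose log2 CPM followed PLAU most closely over the 6 libraries were BIN1 (Pearson r = 0.992), KIAA1671 (0.990) and KRT15 (0.987). BIN1 encodes a membrane-curving BAR protein and KRT15 a keratin. They were picked for this likeness out of all those genes, and their own log2 fold changes were -0.39, -0.29 and -0.61, none of which passed edgeR's test (adjusted p = 0.089, 0.11 and 0.14). Across the same libraries PLAU and PLAUR had r = 0.61, ANXA2 and S100A10 r = 0.73, and PLAU and SERPINE2 r = -0.76. These pairs were not particular, since PLAUR had r = 0.65 with ANXA2 and 0.60 with S100A10, and PLAT had r = -0.63 with ANXA2. Other pairs were weaker, such as PLAU and S100A10 (r = -0.06). The libraries include both groups, so these values are partly the group difference itself.

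Around the members, 98 genes were sorted into 7 lists by role, and 74 could be tested. Of these 4 were higher and 5 lower, or 12.2% against 4.28% of all tested genes, and 65 did not pass (10 higher and 20 lower with the replicate block, 40.5% against 22.7%). Without 1 library between 3 and 6 of the listed genes were called, except without wild type replicate 3, when 1 was. The median log2 fold change of the 74 was -0.05, beside 0.00 for all tested genes. Of the 9 calls, 5 sat among the genes whose products plasmin or uPA are known to cut, and the other lists held at most 1 call each. The lists were drawn up with earlier results of these data known.

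**Figure D3:**
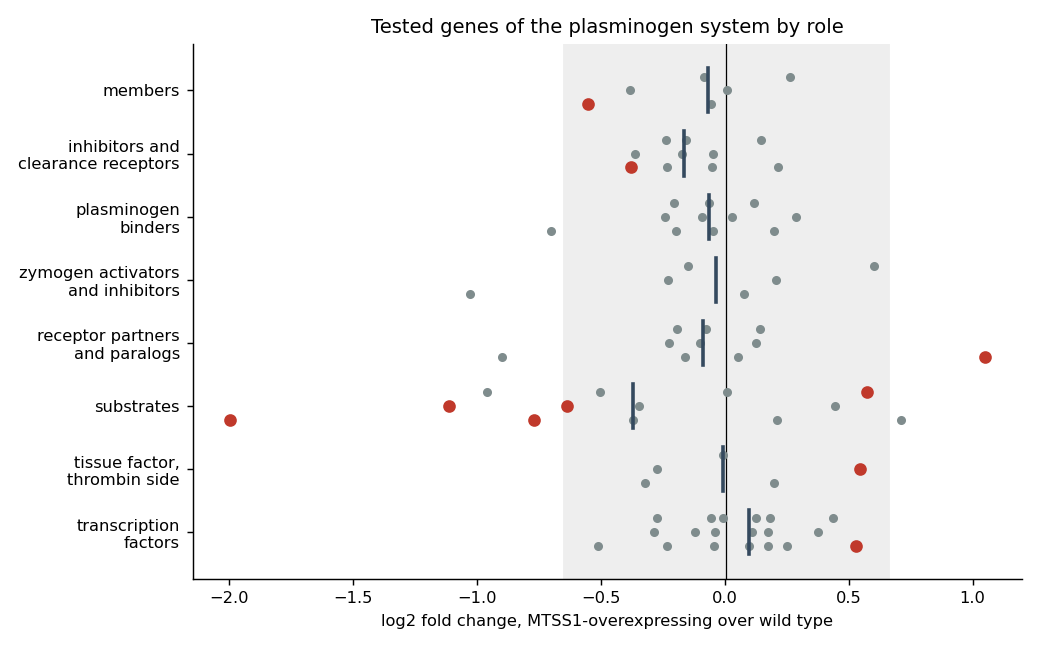
Log2 fold change of overexpressing over wild type (horizontal axis) of each tested gene, by role (rows); large red points have edgeR adjusted p under 0.05, dark bars are list medians, the black line is the median and the grey band the 5th to 95th percentile of all tested genes. The red points to the left are mostly in the row of substrates, whose median is -0.37.

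Of 18 listed substrates of plasmin or uPA, 13 were tested, and 4 were lower, 1 higher and 8 not past the threshold, with a median of -0.37 (1 higher and 6 lower by DESeq2, 2 and 7 with the block). The share called was 38.5%, beside 4.28% of all tested genes, in a list drawn up with earlier results known. F2RL1, which encodes the protease-activated receptor PAR2, stood at 83.3, 110.5 and 89.0 CPM in overexpressing cells, against 162, 143 and 178 CPM in wild type cells (log2 fold change -0.77, SE 0.12, adjusted p = 0.012 by edgeR). CDCP1, a transmembrane protein that is cut by plasmin and passes signals through Src kinases, stood at 151, 156 and 145 CPM in overexpressing cells, against 269, 197 and 237 CPM in wild type cells (log2 fold change -0.64, SE 0.11, adjusted p = 0.017 by edgeR). Both of these genes had separate groups. The membrane-bound metalloprotease gene MMP14 averaged 53.0 ± 3.63 CPM in overexpressing and 115 ± 15.1 CPM in wild type cells (log2 fold change -1.12, adjusted p = 0.0016 by edgeR). The collagenase gene MMP1 averaged 1.94 ± 1.33 CPM in overexpressing and 7.85 ± 2.67 CPM in wild type cells (log2 fold change -2.00, adjusted p = 0.046 by edgeR). The fibronectin gene FN1 was the higher one, at 53.3 ± 7.99 CPM in overexpressing and 35.9 ± 3.40 CPM in wild type cells (log2 fold change 0.57, adjusted p = 0.038 by edgeR). The 8 that did not pass had log2 fold changes from -0.96 to 0.71, 4 below and 4 above 0. Without 1 library MMP14 was called in 6 of 6 fits, F2RL1 in 4, CDCP1 in 3, MMP1 in 1 and FN1 in 0. Without both replicate 1 libraries MMP14 was the 1 called gene of all the lists (adjusted p = 0.015 by edgeR).

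**Figure D4:**
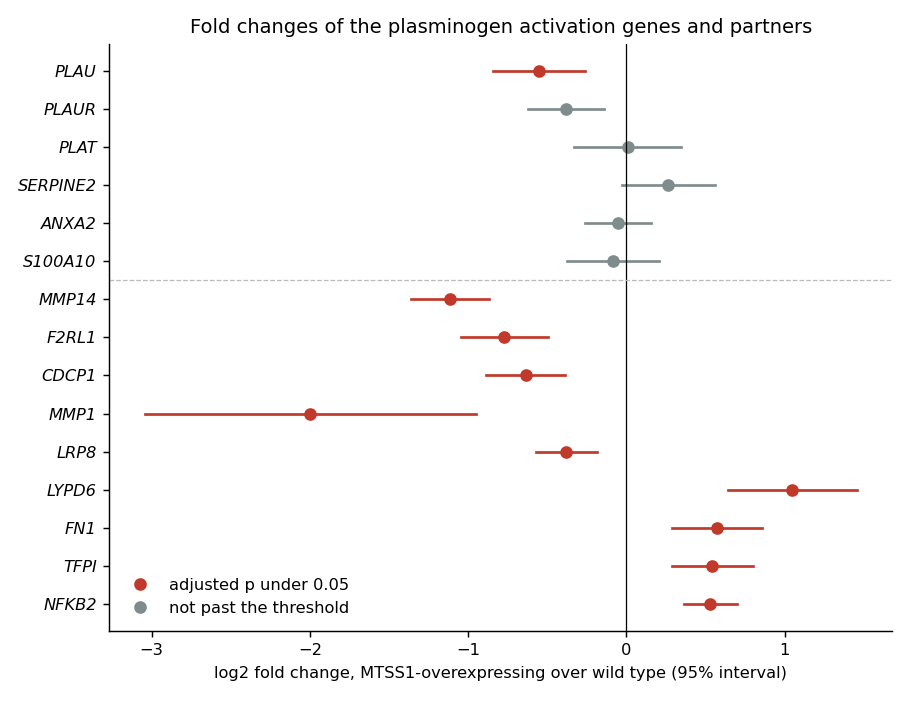
Log2 fold change of overexpressing over wild type (horizontal axis) with its 95% interval for the 6 tested members (above the dashed line) and for the 9 called genes of the surrounding lists; red marks edgeR adjusted p under 0.05. PLAU is the one red member, and the widest interval is that of MMP1.

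Clearance receptors and further inhibitors gave 1 call, or 10% of those tested, beside 4.28% of all tested genes. Of 14 listed, 10 were tested, and 1 was lower, 0 higher and 9 not past the threshold (0 higher also at an unadjusted p under 0.05 and by DESeq2; 1 higher and 3 lower with the block; median -0.16). LRP8, a receptor of the LDL receptor family, stood at 40.1 ± 1.05 CPM in overexpressing and 52.2 ± 1.97 CPM in wild type cells (log2 fold change -0.38, adjusted p = 0.042 by edgeR), and it was called in 0 of 6 fits without 1 library. LRP1, the best known receptor for complexes of uPA with its inhibitor, stood at 34.7, 51.5 and 29.7 CPM in overexpressing and at 29.4, 45.8 and 24.6 CPM in wild type cells (adjusted p = 0.71 by edgeR; 0.040 with the block). Replicate 2 was highest in both groups.

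No binder of plasminogen passed. Of 14 listed, 11 were tested, with 0 higher and 0 lower in edgeR (1 and 2 at an unadjusted p under 0.05, 1 and 0 by DESeq2, 2 and 2 with the block; median -0.06). The glycolytic enzyme gene ENO1, whose product also binds plasminogen at the surface, averaged 2967 ± 260.0 CPM in overexpressing and 2733 ± 190.1 CPM in wild type cells (log2 fold change 0.12, adjusted p = 0.57 by edgeR). ANXA6 had a log2 fold change of 0.29 (adjusted p = 0.083 by edgeR; 0.0014 with the block) and S100A11 of -0.24 (adjusted p = 0.18 by edgeR; 0.0080 with the block). PLG, the gene of plasminogen itself, was listed at 0 in all 6 libraries.

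Among proteases that act on pro-uPA and their inhibitors no gene passed. Of 11 listed, 6 were tested and 5 had too few reads, with 0 higher and 0 lower in edgeR (0 and 1 at an unadjusted p under 0.05 and by DESeq2, 0 and 2 with the block; median -0.04). SPINT2, an inhibitor of the proteases that activate pro-uPA and pro-HGF, averaged 2.07 ± 0.550 CPM in overexpressing and 4.17 ± 0.726 CPM in wild type cells (log2 fold change -1.03, adjusted p = 0.074 by edgeR; 0.0067 with the block). The cathepsin gene CTSB had a log2 fold change of -0.23 (adjusted p = 0.33 by edgeR; 0.0092 with the block).

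Partners and paralogs of uPAR gave 1 call, or 10% of those tested, beside 4.28% of all tested genes. Of 13 listed, 10 were tested, and 1 was higher, 0 lower and 9 not past the threshold (0 lower also by DESeq2, 1 lower at an unadjusted p under 0.05; 1 higher and 3 lower with the block; median -0.09). LYPD6, which shares the LY6 and uPAR fold, stood at 11.5, 9.46 and 11.7 CPM in overexpressing cells, against 5.89, 4.27 and 5.63 CPM in wild type cells (log2 fold change 1.05, SE 0.18, adjusted p = 0.015 by edgeR), and was called in 4 of 6 fits without 1 library. ITGB3, the integrin chain that pairs with the αV chain to bind vitronectin, averaged 1.64 ± 0.177 CPM in overexpressing and 3.06 ± 0.449 CPM in wild type cells (adjusted p = 0.095 by edgeR; 0.024 with the block). VTN, the vitronectin gene, had 0 counts in overexpressing and 2 in wild type cells.

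On the clotting side, 5 of 9 listed genes were tested, and 1 was higher, 0 lower and 4 not past the threshold. The share called was 20%, beside 4.28% of all tested genes. DESeq2 also gave 0 lower, while 1 was lower at an unadjusted p under 0.05 and with the block. The median was -0.01. TFPI, the inhibitor of the tissue factor pathway, averaged 43.1 ± 4.55 CPM in overexpressing and 29.6 ± 2.27 CPM in wild type cells (log2 fold change 0.54, SE 0.11, adjusted p = 0.032 by edgeR; called in 1 of 6 fits without 1 library). PROCR, the endothelial protein C receptor gene, had a log2 fold change of -0.32 (adjusted p = 0.17 by edgeR; 0.011 with the block).

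Transcription factors known to act on the urokinase gene gave 1 call, or 5.26% of those tested, close to the 4.28% of all tested genes. All 19 listed were tested, and 1 was higher, 0 lower and 18 not past the threshold (1 higher and 1 lower by DESeq2, 2 and 1 at an unadjusted p under 0.05, 3 and 2 with the block; median 0.10). The AP-1 gene FOSL1 averaged 473 ± 29.9 CPM in overexpressing and 492 ± 58.8 CPM in wild type cells (adjusted p = 0.83 by edgeR), and ETS1 282 ± 69.1 CPM in overexpressing and 289.7 ± 19.6 CPM in wild type cells (adjusted p = 0.93 by edgeR). NFKB2, an NF-κB subunit gene, was the higher one, at 209.7 ± 8.03 CPM in overexpressing and 145 ± 4.98 CPM in wild type cells (log2 fold change 0.53, adjusted p = 0.0075 by edgeR), and the Ets family gene ETV4 had a log2 fold change of -0.51 (adjusted p = 0.076 by edgeR; 0.0014 with the block). RNA levels do not show the activity or phosphorylation of these proteins.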

How the data were processed

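The authors deposited raw read counts, as whole numbers for each Ensembl identifier, for all 6 libraries. Per the submitters' processing notes, bcl2fastq, HISAT2 2.1.0, HTSeq and GRCh38 were used. The annotation release is not given in the sources used here. Symbols came from the given name table and GENCODE 29, which also gave GRCh38 coordinates and principal transcript lengths. The test was edgeR's (version 4.0.16, under R 4.3.3): filterByExpr, TMM, quasi-likelihood test, two-sided, Benjamini-Hochberg adjustment over 16091 genes, threshold 0.05. The steps were tested on simulated data, where most of the larger changes but only a minority of changes about the size of that of PLAU were called, and false calls exceeded the share set by the threshold. DESeq2 1.42.0 was an alternative. Log2 CPM used a prior count of 2, and 95% intervals use the SE and the fit's degrees of freedom.

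The members and lists were chosen with earlier results of these data known. Named in the text are all members, the called genes of each list (at least the 2 of smallest p), the 3 genes most like PLAU by Pearson r of log2 CPM, and LRP1, ENO1, VTN and PLG; FOSL1 and ETS1 were added after their values were seen. Other genes that this rule names are not reported here.

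Libraries with neighbouring title numbers, 1 of each group, deviated together from their group means (correlations 0.66, 0.34 and 0.38 across genes). The labels do not say what the numbers mean. Results with these pairs as a replicate block are given where they change a count of calls among the members, the lists or the cell line markers. Totals ran from 13883380 to 29479453 counts; counting error weighs most on genes with few counts, such as SERPINB2, SERPINE2 and PLAT.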

Additional observations from a re-analysis of the deposited data

How the results depend on the processing

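The 688 genes called in all became 1190 with DESeq2, 1489 with no filter on low counts, 3651 with the replicate block, 361 with the neighbour offset, 2310 with both of these, 132 without both first replicates and 145 to 346 without 1 library. The 1 member called became 2 with DESeq2, with no filter, with the replicate block and with block and offset together, 0 with the offset alone and without both first replicates, and 0 to 1 without 1 library. The 9 calls in the surrounding lists became 14 with DESeq2, 17 with no filter, 30 with the block, 26 with block and offset, 1 without both first replicates and 1 (without wild type replicate 3) to 6 without 1 library. Block with offset, and leaving out both first replicates, were chosen after seeing the data. Signs turned for 4 genes that were not called in the fit without a block, PLAT, ANXA2, S100A10 and LRP1. Without 1 library PLAT ranged from -0.090 to 0.17 (among them -0.016, -0.039 and -0.045), ANXA2 from -0.11 to 0.016, S100A10 from -0.20 to 0.068 and LRP1 from -0.048 to 0.52, and the signs of ANXA2, S100A10 and LRP1 turned without MTSS1 overexpressing replicate 2. PLAT stood at -0.075 without both first replicates, and ANXA2 at 0.018 with the offset and 0.014 with block and offset. None of these values was called. LRP1 was called only with the block alone (log2 fold change 0.22, adjusted p = 0.040 by edgeR). The cause was not tested, but fits without 1 library rest on fewer samples. DESeq2's size factors in edgeR changed no call among the members. Few reads limit SERPINB2, with 7 and 10 pooled counts.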
